A study of Mus musculus with 4 samples.

Results

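The nuclei described here are mature oligodendrocytes of the mouse hippocampus in which the transcripts of Hapln2, Anln, Klk6 and Sec14l5 together outnumbered those of Il33, Opalin, Slc13a1 and Ninj2. They were taken by a counting rule from 32048 cell barcodes, of which 32044 had at least 500 UMIs (unique molecular identifiers, 1 per captured RNA molecule) and at most 5% mitochondrial UMIs. A nucleus had to hold a UMI of at least 3 of the 5 oligodendrocyte genes Mog, Mag, Mobp, St18 and Prr5l. It could hold UMIs of at most 1 of Aqp4, Slc4a4, Pdgfra, Inpp5d and Flt1, which mark astrocytes, precursors, microglia and endothelium, at most 3 UMIs of the neuronal genes Syt1 and Rbfox3, and at most 1 UMI of C4b and Serpina3n, which rise in reactive oligodendrocytes. Of 9988 nuclei that met these limits, 5093 were of the Hapln2/Anln type, 3697 had the larger sum on the other side and are called the Il33/Opalin type, and 1198 had equal sums.

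The study compared 3 genotypes, with 1 library of WT mice, 2 of PS19 mice and 1 of TG_PS19 mice. PS19 mice carry human 1N4R tau with the P301S mutation under the Prnp promoter, on a mixed B6;C3 background. TG_PS19 mice carry the PS19 transgene and also a SORLA transgene in the Rosa26 locus, driven broadly by a CMV/β-actin promoter element; SORLA, encoded by Sorl1, is a sorting receptor of the endosome. All 3 groups came as littermates from crosses of these lines, and frozen hippocampi were pooled within a group before the nuclei were isolated; the age, the sex and the number of animals were not given in the sources used here. Because tissue was pooled, the spread between the 2 PS19 libraries may be technical, and p-values measure only that spread.

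Oligodendrocytes wrap axons in myelin, a stack of membrane rich in cholesterol and in a few proteins such as myelin basic protein, and they supply axons with metabolites. Mature oligodendrocytes are not uniform: genes such as Klk6, Anln and Hapln2 are known from cells of white matter tracts, and genes such as Il33 and Ptgds from another mature population. Hapln2 encodes a link protein of the matrix at nodes of Ranvier, Anln the septin-binding scaffold anillin, and Klk6 a secreted serine protease. Oligodendrocytes also carry the glucocorticoid receptor, a transcription factor that binds DNA when stress hormones reach it and raises genes such as Sgk1, Fkbp5 and Zbtb16.

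The WT library held 12762 barcodes, the PS19 libraries 4643 and 4924, and the TG_PS19 library 9719, where the labels state that 10000 nuclei were loaded per run. Hapln2/Anln nuclei numbered 1824 in WT, 781 and 793 in PS19, and 1695 in TG_PS19. Their median depth was 2192, 2543, 3164 and 2180 UMIs, in the order WT, PS19 replicate 1, PS19 replicate 2 and TG_PS19, an order kept below wherever 4 values are given. Summed over the nuclei, the libraries contributed 4324292, 2162002, 2702525 and 4094926 UMIs. The PS19 libraries were thus the smallest in nuclei and the deepest per nucleus, so library size and depth cannot be told apart from genotype. Any 2 libraries shared between 5 and 32 barcodes. Among barcodes of Hapln2/Anln nuclei, WT shared 1 with PS19 replicate 2 and 1 with TG_PS19. PS19 replicate 2 and TG_PS19 also shared 1, and whether these were the same barcode was not examined.

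The nuclei carried the genes of their name, as the rule required, and these levels are a description. Levels in plain CPM are a gene's UMIs scaled in the usual way to a common total, here all UMIs of the nuclei concerned. Hapln2 stood at 584.8, 681.8, 542.1 and 435.7 plain CPM, against 214.5, 224.7, 163.3 and 139.2 in Il33/Opalin nuclei and 2.6 to 5.9 in nuclei without a UMI of the 5 oligodendrocyte genes. Anln reached 547.6, 627.7, 683.1 and 656.2 plain CPM, against 164.3 to 199.8 in the Il33/Opalin type. Sec14l5, a gene of the SEC14 family of lipid-binding proteins, was the most widely detected of the 4, with a UMI in 90.3% of the WT nuclei (exact 95% interval 88.8 to 91.6%). Klk6 was rare, with a UMI in only 2.03% of WT nuclei (1.43 to 2.79%) and 5.89% of those of PS19 replicate 1 (4.34 to 7.78%), against 0.399% and 0.680% of nuclei without an oligodendrocyte gene. In WT, 13.9% of the nuclei held UMIs of 1 of the 4 genes, 43.1% of 2, 41.7% of 3 and 1.37% of all 4, so the type was defined mainly by Sec14l5, Hapln2 and Anln. These shares depend on depth. With nuclei thinned to 1000 UMIs and the rule applied again, 1509 WT nuclei passed. Of these, 75.5% had a UMI of Sec14l5, 51.4% of Hapln2 and 46.6% of Anln. They were chosen anew by the same genes, so these are not the same nuclei at lower depth.

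The label of mature oligodendrocyte held for genes the rule had not used. The other 8 genes of the mature oligodendrocyte list, among them Mbp, summed to 15250, 16322, 14671 and 14942 plain CPM, against 324 to 618 in nuclei without an oligodendrocyte gene. Of the genes in the rule, Mog (1386 to 1701 plain CPM) and Mag (861 to 1495) were close to their levels in Il33/Opalin nuclei (1265 to 1508 and 852 to 1478).

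Of the 5093 nuclei, 1119 passed by a margin of 1 UMI, 1648 by 2 or 3, and 2326 by 4 or more. The margin is counted from the UMIs of the rule, so the levels of Hapln2 and Anln across it are fixed by the choice of nuclei and are only a description. Depth went with it too: the median in WT was 1924 UMIs at a margin of 1 and 2479 at 4 or more. Hapln2 in nuclei with equal sums stood at 318.2, 289.5, 240.5 and 165.0 plain CPM, just inside the threshold at 389.8, 427.3, 303.8 and 283.1, and at a margin of 4 or more at 740.7, 796.3, 635.2 and 535.7. Anln in WT stood at 206.5, 313.9 and 755.3 plain CPM. Of genes outside the rule, Spock3, which encodes a secreted proteoglycan, stood in WT at 614.0 in ties, 584.8 at a margin of 1 and 908.5 at 4 or more, and Selenop, a secreted selenium carrier, at 149.0, 143.9 and 200.2. Neither was higher at a margin of 1 than in ties. Ptgds, which makes prostaglandin D, stood at 2844.6, 2509.0 and 1359.6 plain CPM in WT. The 1399 nuclei with no UMI at all of Il33, Opalin, Slc13a1 and Ninj2 made up 24.7%, 22.7%, 20.2% and 36.0% of the 4 libraries.

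The share of mature oligodendrocytes that were Hapln2/Anln nuclei depended on the margin asked for. By the rule, it was 50.05% in WT (exact 95% interval 48.42 to 51.69%), 54.46% (51.84 to 57.06%) in PS19 replicate 1, 52.41% (49.86 to 54.96%) in replicate 2, and 49.90% (48.20 to 51.59%) for TG_PS19. Both PS19 libraries were above the other two, yet an exact two-sided permutation test of 1 library against 2 cannot go below p = 0.3333. With a margin of at least 2 UMIs the libraries were further apart, at 37.2%, 46.0%, 44.2% and 37.9%, and the PS19 nuclei were also the deepest. Thinned to 1000 UMIs the shares by the rule were 44.55%, 48.35%, 45.51% and 44.43%. The whole rule was applied again to the thinned counts, and nuclei below 1000 UMIs were left out. The limit on C4b and Serpina3n then removed 125 and 90 PS19 oligodendrocytes, against 453 and 431 before thinning. Thinning thus changed more than depth. The intervals cover counting error only. Of all nuclei, Hapln2/Anln nuclei were 14.3%, 16.8%, 16.1% and 17.4%.

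The limit on C4b and Serpina3n, which is part of the rule, left out more nuclei in PS19 than elsewhere, and this is a description with no test. C4b encodes a complement component and Serpina3n a secreted protease inhibitor. On the Hapln2/Anln side, 2 or more UMIs of the pair excluded 21 nuclei in WT (1.14%, interval 0.706 to 1.73%), 229 and 205 in the PS19 replicates (22.7%, interval 20.1 to 25.4%, then 20.5%, interval 18.1 to 23.2%) and 12 among TG_PS19 nuclei (0.703%, 0.364 to 1.22%). Over both sides and thinned to 1000 UMIs, the limit removed 7.11% and 5.01% of PS19 oligodendrocytes and at most 0.265% of those of the other libraries. What follows is therefore about PS19 nuclei without the strongest C4b and Serpina3n signal; without the limit, the Hapln2/Anln side was 50.12%, 53.52%, 51.34% and 49.94% of oligodendrocytes.

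**Figure D1:**
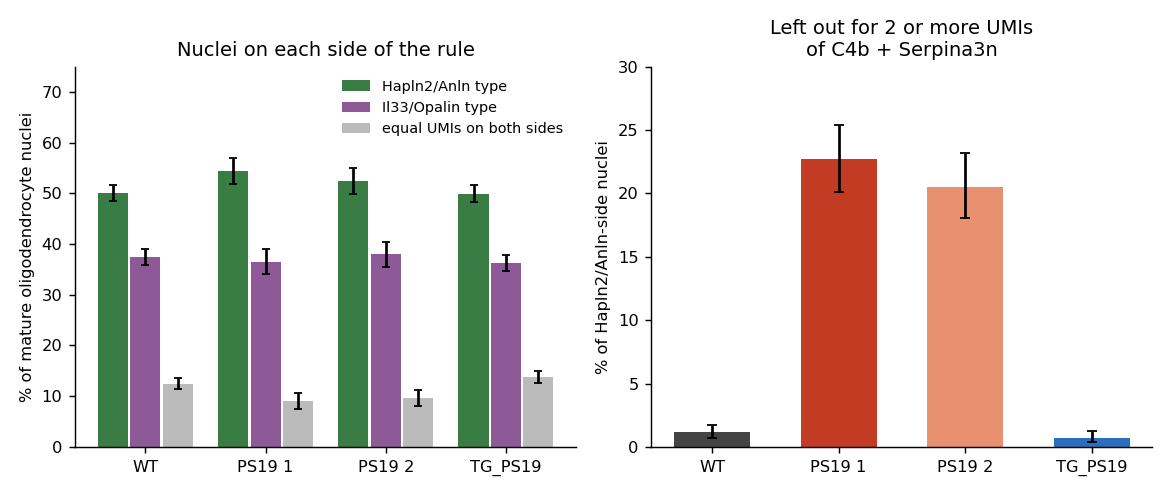
Left, bars give the percent of mature oligodendrocyte nuclei of the Hapln2/Anln type, the Il33/Opalin type and with equal sums in each library; right, the percent of Hapln2/Anln-side nuclei left out for 2 or more UMIs of C4b and Serpina3n. Error bars are exact 95% binomial intervals (counting error only); the Hapln2/Anln share lies between 49.90% and 54.46%, while the excluded share is 22.7% and 20.5% in PS19 and 1.14% or less elsewhere.

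The transgenes matched the labels. Human SORL1 had 0 UMIs in the Hapln2/Anln nuclei of WT and of both PS19 libraries and 186 in those of TG_PS19, or 45.4 plain CPM. Human MAPT had 0 UMIs in WT, 19 and 33 in PS19 (8.79 and 12.2 plain CPM) and 19 in TG_PS19 (4.64). A count of 0 allows up to 0.694 plain CPM in WT and up to 1.39 and 1.11 in the PS19 libraries, at 3 counts per library. The mouse genes were not called by edgeR's test: mouse Mapt stood at 1626, 1870, 1920 and 1528 plain CPM (adjusted p = 0.25 for PS19 against WT) and mouse Sorl1 at 62.0, 52.3, 50.3 and 57.6 (adjusted p = 0.71). The TG_PS19 library alone held Xist, the RNA of the inactive X chromosome, at 759 plain CPM against 0.46 to 0.93 elsewhere. Its Hapln2/Anln nuclei comprised 679 with Xist and no Y-linked UMI, 452 with a Y-linked UMI and no Xist, and 68 with both, so it mixed tissue of both sexes and the other libraries did not.

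Beyond the genes of the rule, the median ratio of Hapln2/Anln to Il33/Opalin nuclei was highest for the uncharacterised A530053G22Rik and lowest for 7630403G23Rik and Kit. Because the rule split these nuclei by their transcripts, ratios between the types are a description with no test. Of 6960 genes with at least 20 plain CPM in either type, 1115 were higher in the Hapln2/Anln type in all 4 libraries and 1178 lower. Only 15 and 11 of these were at least 2-fold apart in every library. On the Hapln2/Anln side, Cntn3 (chr6:102162655-102573101, GRCm38, minus strand), a contactin of the immunoglobulin superfamily, stood at 273, 358, 457 and 388 plain CPM against 74.3, 99.4, 99.8 and 110. Its log2 ratios were 1.87, 1.85, 2.19 and 1.82. Enpp6 (chr8:46986887-47096762, plus strand), a choline-releasing phosphodiesterase known from newly forming oligodendrocytes, stood at 240.5, 241.4, 245.7 and 249.1 plain CPM against 71.3, 63.5, 61.8 and 73.8. Both genes kept the types well apart in each library, and Enpp6 barely varied between libraries.

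The other genes of the Hapln2/Anln side by median log2 ratio were A530053G22Rik (2.18), 4930587E11Rik (2.02), Piezo2 (1.75), Sdk2 (1.74), Slc5a11 (1.72), Cdh8 (1.64), Cyp27a1 (1.52), Cldn14 (1.46), Plin3 (1.43), Thsd4 (1.41), Aff3 (1.40), Ccdc152 (1.36) and Shroom1 (1.32). Piezo2 encodes a mechanosensitive channel, Slc5a11 an inositol transporter and Cyp27a1 a sterol hydroxylase; Sdk2 and Cdh8 are adhesion molecules. The non-coding 4930587E11Rik lies inside the span of Cntn3, and Ccdc152 adjoins Selenop, so reads of these pairs could be shared. On the Il33/Opalin side the lowest ratios belonged to 7630403G23Rik (-2.58), Kit (-2.43), Gm5087 (-2.12), Synpr (-1.94) and Kirrel3 (-1.93). Kit, a receptor tyrosine kinase, stood at 6.7 to 20.4 plain CPM in Hapln2/Anln nuclei and 44.9 to 85.6 in the Il33/Opalin type. Kirrel3, an adhesion molecule of the nephrin family, was abundant in both types, at 467.2 to 645.7 against 1386.9 to 2863.9.

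**Figure D2:**
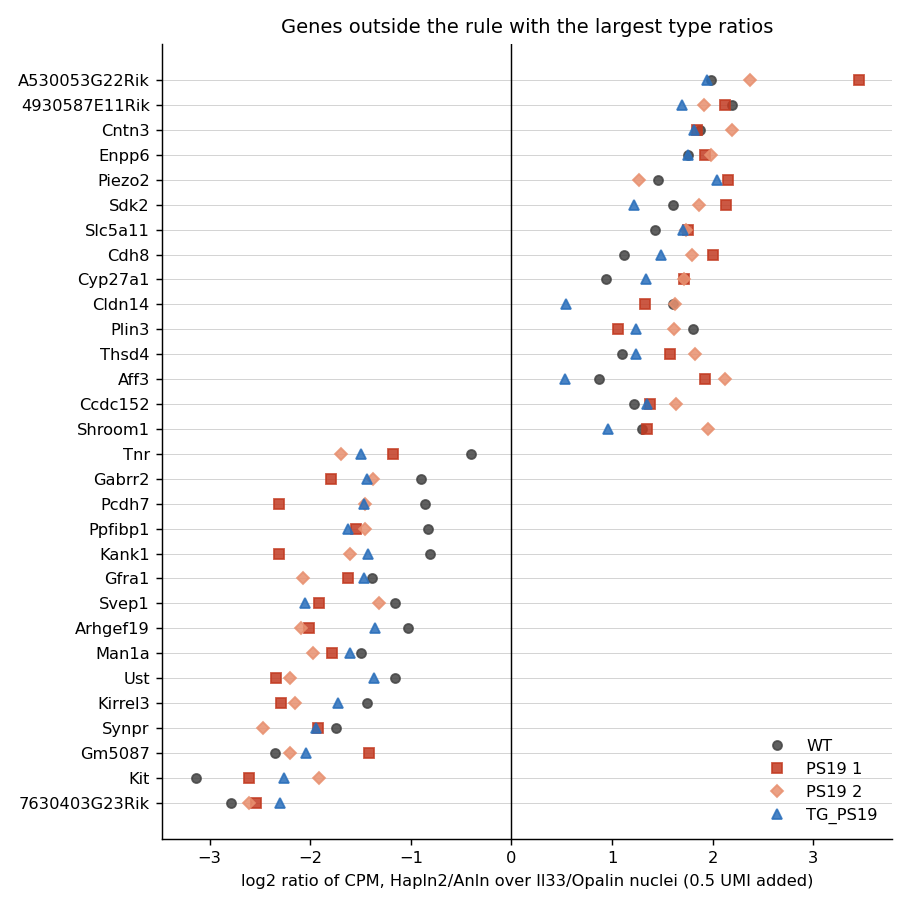
Each point is the log2 ratio of CPM in Hapln2/Anln over Il33/Opalin nuclei in 1 library (0.5 UMI added), for the 15 genes outside the rule with the highest and the 15 with the lowest median ratio. All points of a gene lie on 1 side of 0 because the genes were chosen for that; Cntn3 and Enpp6 lie within 1.75 to 2.19 in all 4 libraries, while A530053G22Rik ranges from 1.95 to 3.46.

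Genes listed as companions of each type followed the division only in part. Of 11 listed companions of the Hapln2/Anln type outside the rule, 7 were higher there in all 4 libraries, namely Mgst3, Hopx, Spock3, Cd59a, Anxa5, S100b and Nkain2, with median log2 ratios from 0.21 to 1.32. Rasal1 (-1.28), Dpyd (-0.41) and Pex5l (-0.37) were lower in all 4. Of 12 listed companions of the Il33/Opalin type, only Ptgds (-0.85) and Gria2 (-0.50) were lower in Hapln2/Anln nuclei in every library. Selenop (1.21), Apod (0.58), Trf (0.37), Neat1 (0.08) and Car2 (0.08) were higher, against the name of their list. Apod and Trf encode apolipoprotein D, a lipid carrier, and transferrin, the iron carrier.

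Comparisons between genotypes used UMIs summed per library over the Hapln2/Anln nuclei, edgeR's quasi-likelihood test and a Benjamini-Hochberg adjusted p of 0.05. The fit and the adjustment covered 14902 genes, those of the rule included. Calls were counted over the 14880 genes outside the rule. The spread came from the PS19 pair alone, and the single WT and TG_PS19 libraries were assumed to vary as that pair did. A gene's spread was drawn wholly from the trend over all genes (median prior degrees of freedom infinite). How closely the PS19 pair agreed in a given gene therefore hardly entered its SE or p. Values called normalised CPM are scaled between libraries by the trimmed mean of M values (TMM), and fold changes are given as log2 ± SE. Between PS19 and WT, 877 genes were called (5.89%), 226 higher (1.52%) and 651 lower (4.38%); with library totals in place of TMM, the split was 18 higher and 159 lower. Between TG_PS19 and PS19, 1015 were called (6.82%), 764 higher (5.13%) and 251 lower (1.69%); with library totals, 104 and 11. Between TG_PS19 and WT, 255 were called (1.71%), 175 higher (1.18%) and 80 lower (0.538%); with library totals, 4 and 1. DESeq2 called 53, 57 and 9 genes. The comparisons share libraries and are not independent of each other.

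Most of the genes lower in PS19 were lower in Hapln2/Anln nuclei than in nuclei without an oligodendrocyte gene. Of the 651 lower genes, 91.2% were of this class, as were 76.0% of the 764 genes higher in TG_PS19 than in PS19, where the class held 55.4% of all 14880 genes tested. The class does not mark a gene as foreign to oligodendrocytes, since Fkbp5 and H2-D1, described further on, also belong to it. The 10 genes with the largest falls, Gm20713, Rgs20, Gpc5, Cldn10, Ntm, Trpm3, 9530026P05Rik, Mgat4c, Epha6 and Slc7a11, were all of this class. Gpc5, a glypican abundant in astrocytes, went from 389 normalised CPM in WT to 43.4 and 111 in PS19 and 391 in TG_PS19 (-2.30 ± 0.14, adjusted p = 1.2e-52). Trpm3, an ion channel gene, fell by 2.12 ± 0.15, yet a single nucleus held 67.2% and 54.9% of its UMIs in the PS19 libraries. Slc7a11, the cystine transporter, stood at 87.9, 27.5, 16.2 and 39.2 normalised CPM.

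Summed markers of astrocytes and excitatory neurons were low in both PS19 libraries, while the sums for other neurons were not. The 10 astrocyte markers outside the rule summed to 1832 plain CPM in WT, 552 and 669 in PS19 and 1489 in TG_PS19, where nuclei without an oligodendrocyte gene held 8304 to 11361. Of these 10, 9 fell between PS19 and WT (median log2 change -1.83 against 0.01 over all genes) and 9 rose between TG_PS19 and PS19 (median 1.40). The 10 excitatory neuron markers summed to 722, 249, 226 and 706 plain CPM; all 10 fell (median -1.60) and 8 rose (median 1.58). Microglial markers summed to 446, 261, 252 and 342, with 6 of 11 falling in PS19. Fibroblast markers summed to 107, 40.2, 26.3 and 39.8, with 5 of 7 falling in PS19 and 0 of 7 called by edgeR between TG_PS19 and PS19, and mural markers to 131, 62.9, 62.9 and 72.3, with 2 of 5 falling and 0 called in that second comparison. There, neither list had a member at an unadjusted p below 0.05 or a call by DESeq2. Inhibitory neuron markers summed to 1350, 1392, 1515 and 1505 and dentate granule neuron markers to 865, 833, 876 and 961. These sums were not lower in PS19 as a pair, and were 73.4% to 108% of those in nuclei without an oligodendrocyte gene. Of the tested members, 1 of 5 and 2 of 6 were called lower in PS19. By median, the tested members changed by -0.59 and -0.45 there, and by 0.77 and 0.50 between TG_PS19 and PS19. None of the astrocyte markers or excitatory neuron markers was at 0 in any library. The astrocyte and excitatory neuron sums were high in the libraries with more barcodes and low in the smaller PS19 libraries. The inhibitory and granule neuron sums did not follow this order, although their tested members moved by median in the same directions. The inhibitory list includes Erbb4, which is also listed among the oligodendrocyte ion channels and receptors. Its members Gad2, Slc32a1, Pvalb and Lhx6 were too low to test. What part library size had in these changes was not tested. Among nuclei with no UMI of the other-type genes in the rule, 8 astrocyte and 9 excitatory neuron markers still fell, and with predicted doublets left out, 8 and 9.

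Precursor markers moved in both directions between PS19 and WT. Of 8 tested, 2 rose (Tnr and Lhfpl3) and 2 fell (Ptprz1 and Sox6), with a median of -0.38. The list summed to 305, 241, 222 and 490 plain CPM. Between TG_PS19 and PS19, 7 of 8 rose (median 1.11), Ptprz1 and Sox6 among them, where 5.13% of all genes rose. Other settings called fewer of the 8: 1 with DESeq2, 2 with library totals, 1 without nuclei holding other-type UMIs and 2 without doublets. TG_PS19 nuclei with Xist gave 7 (median 1.61) and those with Y-linked UMIs 2 (median 0.30). Lhfpl3 stood at 62.7, 96.1, 89.3 and 155 normalised CPM, Tnr at 26.3, 42.4, 47.1 and 66.0, and the proteoglycan gene Vcan at 6.91, 10.7, 10.6 and 23.5. These were the 3 of 8 that also rose between TG_PS19 and WT, by 1.31, 1.32 and 1.76. Among TG_PS19 nuclei with a Y-linked UMI and no Xist, Vcan went below PS19, by -0.57.

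**Figure D3:**
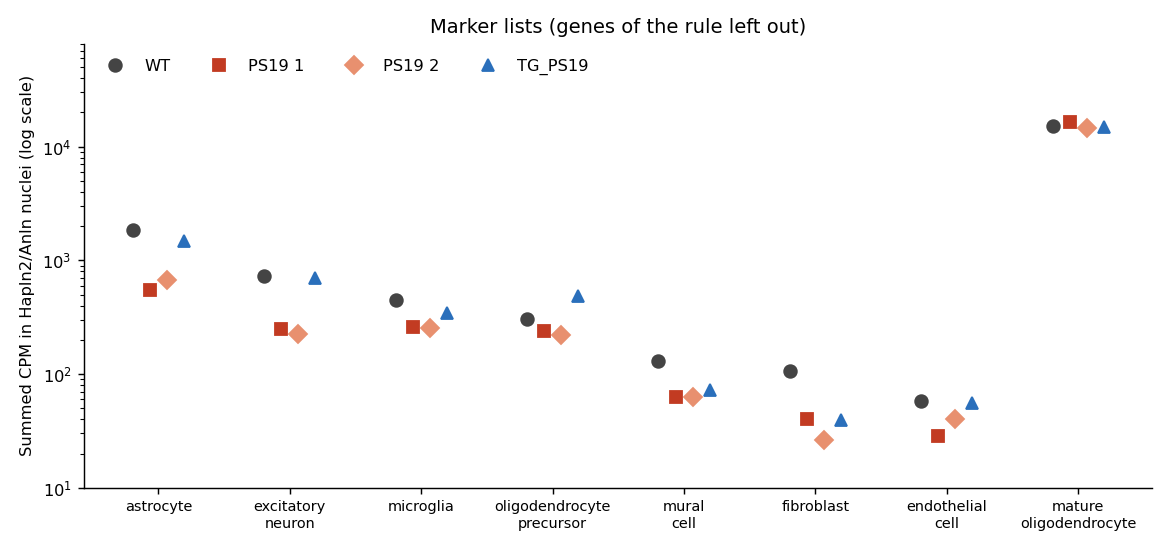
Points give the summed plain CPM of each marker list, without the genes of the rule, in the Hapln2/Anln nuclei of each library on a log scale. The astrocyte list lies at 1832 and 1489 in WT and TG_PS19 against 552 and 669 in PS19, whereas the mature oligodendrocyte list lies within 14671 to 16322.

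Genes at least as high in Hapln2/Anln nuclei as outside oligodendrocytes gave another balance. Of 6633 such genes, 225 were called between PS19 and WT (3.39%), 168 higher and 57 lower. Between TG_PS19 and PS19, 375 were called (5.65%), 183 higher and 192 lower, and between TG_PS19 and WT 137 (2.07%), 99 higher and 38 lower. The genes described next come from lists of oligodendrocyte genes and of responses known in these cells, on either side of this division. These lists were chosen with earlier results of these data known. Their counts of calls, set beside the share of all genes, are therefore a description and not independent evidence.

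Glucocorticoid-responsive genes rose together in the PS19 libraries. Of 16 tested genes of this list, 9 rose between PS19 and WT and 0 fell (median log2 change 0.80 against 0.01 over all genes), where 1.52% of all genes rose. Zbtb16 (chr9:48654297-48836222, minus strand), a zinc finger repressor, stood at 56.4, 226, 230 and 196 normalised CPM. WT was lowest, the PS19 libraries were close to each other, and the change was 2.02 ± 0.17 (adjusted p = 1.1e-30). Sgk1 (chr10:21882184-21999903, plus strand), a kinase that regulates ion channels, stood at 50.4, 162, 150 and 147 (1.63 ± 0.17, adjusted p = 5.4e-19). Fkbp5 (chr17:28399094-28517527, minus strand), a co-chaperone that dampens the receptor itself, stood at 29.0, 79.3, 67.5 and 47.0 (1.33 ± 0.20, adjusted p = 2.3e-09). For all 3 genes the PS19 libraries lay above WT.

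Metabolic members of the list moved likewise. Plin4, a lipid droplet protein, stood at 6.91, 31.7, 35.4 and 12.6 normalised CPM (2.28 ± 0.29, adjusted p = 6.1e-13). Pdk4, a kinase that turns cells from glucose towards fatty acids, stood at 42.1, 109, 95.4 and 80.9 (1.27 ± 0.18, adjusted p = 2.1e-10), and the arrestin-like Arrdc2 at 44.8, 112, 92.4 and 72.3 (1.18 ± 0.18, adjusted p = 3.3e-09). These 6 genes kept their call under every alternative with a test, DESeq2, library totals and thinning included. Klf9, a Krüppel-like factor, rose by 0.76 ± 0.16 (adjusted p = 8.5e-05), the clock gene Per1 by 0.84 ± 0.21 (adjusted p = 0.0032) and the cell cycle inhibitor Cdkn1a by 3.77 ± 0.63 (adjusted p = 2.2e-07). Cdkn1a rested on 4, 21, 40 and 9 UMIs. DESeq2 did not call Klf9 or Per1 and gave Cdkn1a no adjusted p, library totals ended the calls of Klf9 (adjusted p = 0.079) and Per1 (adjusted p = 0.21), and thinning those of Per1 (adjusted p = 0.33) and Cdkn1a (adjusted p = 0.11). Tsc22d3, a classical target of the hormone, stood at 109, 128, 126 and 159 normalised CPM and was not called (adjusted p = 0.58), nor were Ddit4, Mt1, Mt2, Errfi1, Nfkbia and Htra1.

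The Il33/Opalin nuclei showed changes of like size, with Zbtb16 at 2.25, Sgk1 at 1.78, Fkbp5 at 1.27 and Plin4 at 2.20 between PS19 and WT. A test of the difference between the types gave an adjusted p of 1 for each. Within the Hapln2/Anln type, Sgk1 and Zbtb16 were spread over the margins: Sgk1 in nuclei with a margin of 1 stood at 61.0, 160.2, 169.1 and 189.9 plain CPM, and at a margin of 4 or more at 43.9, 144.4, 137.4 and 123.3. No single nucleus held more than 1.7% of the Sgk1 UMIs of a library.

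In TG_PS19 the list stood between the other genotypes, but the nuclei of that library were not alike. Taken whole, 6 of 16 genes fell between TG_PS19 and PS19 and Htra1 rose (median -0.40). The fallen genes were Plin4 (-1.41 ± 0.26, adjusted p = 6.1e-06), Cdkn1a (-2.45 ± 0.54, adjusted p = 0.00027), Klf9 (-0.54 ± 0.16, adjusted p = 0.013), Fkbp5 (-0.64 ± 0.19, adjusted p = 0.015), Per1 (-0.66 ± 0.21, adjusted p = 0.037) and Arrdc2 (-0.50 ± 0.17, adjusted p = 0.047). Neither DESeq2 nor library totals called any gene of the list in this comparison. Zbtb16 (-0.22, adjusted p = 0.47) and Sgk1 (-0.08, adjusted p = 0.86) were not called. Against WT, 4 genes rose in TG_PS19, namely Zbtb16 by 1.80 ± 0.18, Sgk1 by 1.54 ± 0.18, Pdk4 by 0.94 ± 0.20 and Arrdc2 by 0.69 ± 0.20. With library totals 1 gene was called there, and with DESeq2 2.

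Within the TG_PS19 library the levels differed between nuclei of the 2 sex calls. Sgk1 stood at 267 plain CPM (exact Poisson 95% interval 243 to 293, counting error only) in the nuclei with Xist and at 45.2 (33.8 to 59.1) in those with Y-linked UMIs. Zbtb16 stood at 320 and 87.0, Fkbp5 at 73.5 and 19.6, Plin4 at 24.3 and 1.70, Pdk4 at 124 and 46.0, and Per1 at 46.8 and 8.52. The WT library, whose nuclei carried Y-linked genes and almost no Xist, had Sgk1 at 52.3 plain CPM, Zbtb16 at 58.5, Fkbp5 at 30.1, Plin4 at 7.17, Pdk4 at 43.7 and Per1 at 23.6. For each of these 6 genes the Y-linked nuclei of TG_PS19 were closer to WT than to either PS19 library, though Plin4, Per1 and Fkbp5 were below WT. The Xist nuclei were above both PS19 libraries in Sgk1 (PS19 160 and 148 plain CPM), Zbtb16, Pdk4 and Per1, between them in Fkbp5 and below both in Plin4 (31.5 and 34.8). Compared as the only TG_PS19 nuclei, those with Y-linked UMIs had 10 of the 16 genes lower than PS19 (median -1.14) and 0 higher or lower than WT by edgeR. In that comparison with WT, 5 of the 16 fold changes were positive, with a median of -0.25, and at an unadjusted p below 0.05, 2 were higher and 3 lower. Those with Xist had 3 higher and 1 lower than PS19 (median 0.12) and 10 higher than WT (median 0.89). Sex call and source animals cannot be told apart in a pooled library, and both PS19 libraries were of Y-linked nuclei.

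**Figure D4:**
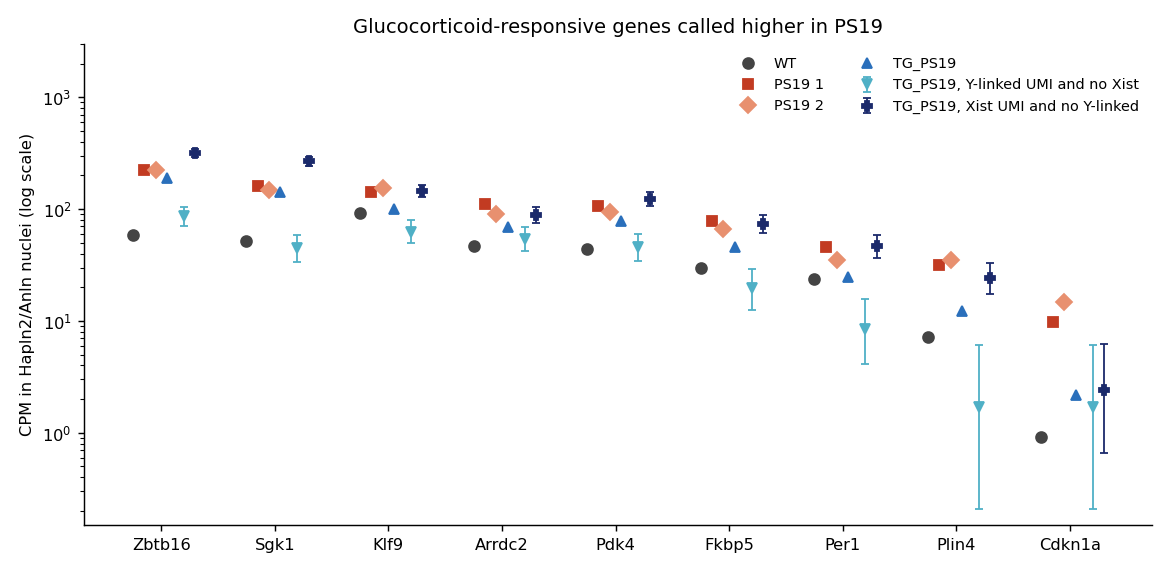
Points give the plain CPM, on a log scale, of the 9 glucocorticoid-responsive genes that rose in PS19, for the Hapln2/Anln nuclei of each library and for the TG_PS19 nuclei split by Xist and Y-linked UMIs; bars on the split values are exact Poisson 95% intervals. PS19 lies above WT for each gene, and within TG_PS19 the Xist nuclei lie above the Y-linked ones, with Sgk1 at 267 against 45.2; for Cdkn1a, at 2.43 against 1.70, the intervals overlap.

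The windows before the annotated starts of these genes were searched for the core of the glucocorticoid receptor's binding element, the spaced palindrome ACANNNTGT, and for its AGAACA unit on both strands (TGTTCT on the other). RefSeq windows on GRCm38.p6 of 250 bases before a start were found for 16 of the 17 listed genes. Among these, 3 held the palindrome, Sgk1, Mt1 and Map3k6, where 5.84% of all 32851 windows and 6.76% of 27025 genes held it. The AGAACA unit was in windows of Sgk1 and Tsc22d3, against 18.2% of all genes. The 2 motifs can overlap. The stretches below are shown because they hold the palindrome, in capitals; the 2 Sgk1 stretches, the first at chr10:21993658-21993757 and the second at chr10:21978499-21978598 on the plus strand, precede different annotated starts inside the span of the gene, that of Mt1 is chr8:94178951-94179050 and that of Map3k6 chr4:133240593-133240692, both on the plus strand.
Sgk1, first: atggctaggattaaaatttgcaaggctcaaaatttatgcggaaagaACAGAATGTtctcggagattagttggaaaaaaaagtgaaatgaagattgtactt
Sgk1, second: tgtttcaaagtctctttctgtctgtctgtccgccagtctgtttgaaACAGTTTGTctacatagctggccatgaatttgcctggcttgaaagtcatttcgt
Mt1: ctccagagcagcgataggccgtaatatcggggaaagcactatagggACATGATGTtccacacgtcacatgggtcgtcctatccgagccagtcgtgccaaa
Map3k6: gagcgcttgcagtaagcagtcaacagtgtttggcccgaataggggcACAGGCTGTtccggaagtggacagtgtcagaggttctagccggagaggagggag
Of the 3 genes, only Sgk1 was called; Mt1 was not, and Map3k6 was too low to test. A match is a run of letters and was not tested as a binding site.

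Some genes of reactive oligodendrocytes rose in PS19 among these nuclei, which were limited to 1 UMI of C4b and Serpina3n together. Within that limit C4b still had a UMI in 4.61%, 23.4%, 23.8% and 4.19% of the nuclei. Its level was 19.4, 84.6, 69.9 and 17.3 plain CPM, a description because the rule used it. Nuclei without an oligodendrocyte gene, to which the limit did not apply, held C4b at 25.03, 86.2, 71.7 and 19.5 plain CPM. The higher level of C4b in PS19 was thus not confined to oligodendrocytes. Of 19 tested, 7 rose and 1 fell between PS19 and WT (median 0.58), where 1.52% and 4.38% of all genes did, and 11 were not called. Plin4 and Cdkn1a, 2 of the 7, are also in the glucocorticoid list. Between TG_PS19 and PS19, 6 fell (median -0.77), against 1.69% of all genes, but DESeq2 called 1 and library totals 1. H2-D1, a class I molecule that presents antigen, stood at 24.3, 69.0, 51.6 and 18.5 normalised CPM, with WT and TG_PS19 both below the PS19 pair (1.30 ± 0.20, adjusted p = 2.1e-08, then -1.70 ± 0.22, adjusted p = 2.5e-12). H2-K1, of the same class, stood at 6.47, 20.5, 18.9 and 8.85 (1.60 ± 0.34, adjusted p = 0.00014). The transcription factor Stat3 stood at 69.1, 107, 99.9 and 57.6 (0.58 ± 0.17, adjusted p = 0.012), and Hif3a, of the hypoxia-inducible family, at 26.5, 65.3, 51.3 and 33.9 (1.12 ± 0.20, adjusted p = 2.4e-06). Nlrc5, an activator of class I genes, rested on 1.12, 4.66, 9.43 and 3.03 normalised CPM (2.66 ± 0.69, adjusted p = 0.0039). H2-K1, Nlrc5 and Cdkn1a were also higher in PS19 among nuclei without an oligodendrocyte gene. There H2-K1 stood at 19.7, 46.5, 40.0 and 11.7 plain CPM and Nlrc5 at 2.60, 10.9, 10.5 and 3.12. Cdkn1a stood there at 0.831, 5.50, 5.70 and 1.06 plain CPM. In the Il33/Opalin type, H2-D1 changed by -1.95 between TG_PS19 and PS19. Nupr1, a stress gene, was the 1 that fell (-2.15 ± 0.56, adjusted p = 0.0034). DESeq2 called 1 of the 19 in PS19 against WT and library totals 2.

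The class I gene H2-D1 and Stat3 had like levels in the TG_PS19 nuclei of either sex call. H2-D1 stood at 20.04 plain CPM in the Xist nuclei and 19.61 in the Y-linked ones, and Stat3 at 57.7 and 62.2. Hif3a stood at 62.5 and 10.2. Between TG_PS19 and WT, edgeR called 0 of the 19 genes, although 4 had an unadjusted p below 0.05, 2 in each direction (median -0.05). DESeq2 likewise called 0. Calls were also counted for each sex call apart, over 18 genes tested. The Xist and Y-linked nuclei, with 1646876 and 1173056 UMIs, were not tested against each other. The Xist nuclei had 1 higher and 3 lower than PS19 (median -0.22) and 3 higher than WT (median 0.07). The Y-linked nuclei had 0 higher and 5 lower than PS19 (median -0.68), and edgeR called 0 against WT (median -0.28), although 3 were lower at an unadjusted p below 0.05. Class I and interferon genes as a list of 14 had 3 higher and 0 lower in PS19, with the light chain gene B2m at 7.58, 11.2, 9.43 and 11.1 normalised CPM and not called.

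Genes of compact myelin gave few calls. Mbp stood at 3945, 4214, 4228 and 3725 normalised CPM and was not called in any comparison. Of 11 tested myelin proteins, 1 rose between PS19 and WT (median 0.10) and 3 fell between TG_PS19 and PS19 (median -0.18). The riser was Cldn11, the claudin of myelin's tight junctions, at 502, 845, 645 and 473 (0.57 ± 0.14, adjusted p = 0.0015); without PS19 replicate 1 its change was 0.37, and without replicate 2 0.75. Cldn11 then fell by 0.65 ± 0.14 (adjusted p = 0.00015), the proteolipid Pllp by 0.60 ± 0.15 (adjusted p = 0.0030) and the tetraspanin Cd9 by 0.49 ± 0.14 (adjusted p = 0.015). Between TG_PS19 and WT, edgeR called 0 of the 11, although 2 were lower at an unadjusted p below 0.05. DESeq2 called 0 there.

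Sterol synthesis genes, which supply myelin cholesterol, gave few calls. Of 23 tested, 3 fell and 0 rose between PS19 and WT (median -0.31), where 4.38% of all genes fell, and at an unadjusted p below 0.05 the numbers were 5 and 0. The enzymes Msmo1 (80.3, 55.0, 47.1 and 65.5 normalised CPM) and Cyp51 (54.9, 36.4, 36.6 and 53.1) fell by 0.66 ± 0.17 and 0.59 ± 0.19 (adjusted p = 0.0049 and 0.039). Between TG_PS19 and PS19 the median of the list was 0.27, and 0.05 with the Xist nuclei as the only TG_PS19 nuclei. DESeq2 and library totals called neither of these enzymes.

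Transcription factors of the lineage gave few calls. Of 15 tested, Myrf, which drives myelin genes, stood at 155, 215, 208 and 184 normalised CPM (0.45 ± 0.15, adjusted p = 0.039), and Zfp365 rose by 0.65 ± 0.17 (adjusted p = 0.0047). Myrf lost its call with doublets left out (adjusted p = 0.24). Sox8, a relative of Sox10, stood at 211, 229, 187 and 122, so that the TG_PS19 library was the lowest (-0.77 ± 0.15 against PS19, adjusted p = 2.8e-05; -0.79 ± 0.17 against WT, adjusted p = 0.00049). It stood at 111 and 124 plain CPM in Xist and Y-linked nuclei of that library. Sox10 itself stood at 385, 381, 345 and 316 and was not called.

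Of the genes named for the 2 types, the companions of the Hapln2/Anln type gave no call between PS19 and WT: edgeR called 0 of 11, although 1 was higher at an unadjusted p below 0.05 (median 0.00). DESeq2 called 0 of them. In TG_PS19 against PS19, Spock3 rose by 0.40 ± 0.13 (adjusted p = 0.039) and Rasal1, a Ras GTPase-activating protein, fell by 0.86 ± 0.19 (adjusted p = 0.00029). Rasal1 stood at 79.6, 76.5, 67.9 and 39.7 normalised CPM. Among the Il33/Opalin companions Apod rose in PS19, as described below, and Trf (1568, 2300, 1628 and 1243) and Neat1 fell in TG_PS19 against PS19 by 0.66 ± 0.14 and 0.52 ± 0.14 (adjusted p = 9.3e-05 and 0.0042). In the same list the AMPA receptor subunit gene Gria2, at 163, 82.1, 67.1 and 179 normalised CPM, fell in PS19 by 1.14 ± 0.15 (adjusted p = 3.8e-11) and rose in TG_PS19 against PS19 by 1.27 ± 0.15 (adjusted p = 8.1e-14), and the metabotropic receptor gene Grm3 rose there by 0.43 ± 0.13 (adjusted p = 0.020). DESeq2 and library totals called Gria2 in both comparisons and did not call Grm3. Gria2 was 3.85 log2 units lower in these nuclei than outside oligodendrocytes. The change of Trf was -0.39 without PS19 replicate 1 and -0.89 without replicate 2.

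Other lists gave scattered calls. Of 17 septin and cytoskeleton genes, Arhgef10 rose in PS19 by 0.46 ± 0.14 (adjusted p = 0.022) and Gsn, the actin-severing gelsolin, fell in TG_PS19 against PS19, at 247, 280, 172 and 146 normalised CPM (-0.62 ± 0.15, adjusted p = 0.0012). The PS19 libraries differed in Gsn, and its change was -0.24 without replicate 1 and -0.94 without replicate 2. Of 16 paranode genes, the gap junction gene Gjb1 rose in PS19 by 0.55 ± 0.18 (adjusted p = 0.039). Of 18 endoplasmic reticulum chaperones and partners, Herpud1 rose by 0.80 ± 0.19 (adjusted p = 0.0013) and the chaperone Hspa5 fell by 0.76 ± 0.16 (adjusted p = 0.00012). Glul, which makes glutamine, stood at 219, 349, 307 and 227 normalised CPM (0.58 ± 0.14 in PS19, adjusted p = 0.0018), and the potassium channel gene Kcna1 at 367, 515, 490 and 378 (0.45 ± 0.14, adjusted p = 0.024). Of 13 heat shock genes, Hspa4l rose between PS19 and WT (adjusted p = 0.043), and Hspa4l and Hsph1 rose between TG_PS19 and WT, each by 0.98 (adjusted p = 0.0015 and 0.0084). Immediate early genes gave 0 calls of 8 by edgeR between PS19 and WT, although 1 was lower at an unadjusted p below 0.05. DESeq2 called 0 of these 8. Of 29 ion channel and receptor genes, 6 fell in PS19 and 10 rose in TG_PS19 against PS19; Ntm, one of them, stood at 238, 32.2, 73.5 and 247 normalised CPM and was 4.16 log2 units lower in these nuclei than outside oligodendrocytes.

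**Figure D5:**
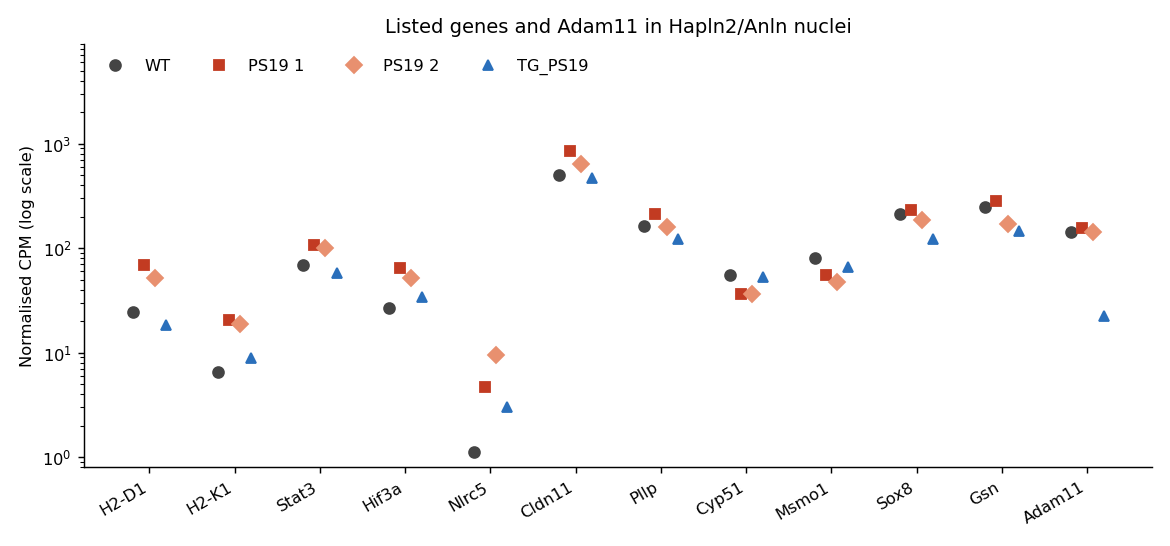
Points give the normalised CPM, on a log scale, of 11 genes from the gene lists and of Adam11 in the Hapln2/Anln nuclei of each library. H2-D1, H2-K1, Stat3 and Hif3a are higher in both PS19 libraries than in WT and TG_PS19, Msmo1 and Cyp51 are lower, and Adam11 is low in TG_PS19 alone, at 22.5 against 143 to 157.

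The largest falls and rises by size, outside the lists, included genes of several kinds. Adam11 (chr11:102761439-102780262, plus strand), a catalytically inactive ADAM-family adhesion protein, stood at 143, 157, 144 and 22.5 normalised CPM, so that the TG_PS19 library lay far below the other 3. It fell by 2.74 ± 0.20 against PS19 (adjusted p = 1.6e-40) and by 2.67 ± 0.21 against WT (adjusted p = 1.1e-33), and 81 of the 1695 TG_PS19 nuclei had a UMI. Its level was 20.65 plain CPM in Xist nuclei and 23.02 in Y-linked ones. In PS19, the top risers beyond the hormone list were 9630013A20Rik (2.61), Npas1 (1.64), Gm29237 (1.51), Gm7180 (1.48), Aldh1l2 (1.37) and Gstp1 (1.33). Aldh1l2, a mitochondrial folate enzyme, stood at 23.6, 60.6, 61.5 and 30.8 normalised CPM, and the glutathione transferase Gstp1 at 12.9, 32.2, 32.8 and 16.7. A single nucleus held 66.2% and 44.3% of the 9630013A20Rik UMIs in the PS19 libraries.

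In TG_PS19 against PS19, the lowest after Adam11 were 9630013A20Rik (-2.09), H2-D1, Plin4, Slc39a14 (-1.37), 2810410L24Rik (-1.23), Htr1f (-1.13), Thsd4 (-1.11), Masp1 (-1.10) and Gm42495 (-1.06). Slc39a14, a zinc and iron importer, stood at 19.2, 35.0, 39.2 and 14.4 normalised CPM. The 10 largest rises, led by Gm20713 (2.99), were all genes with a higher level outside oligodendrocytes. Against WT, TG_PS19 was higher in Zbtb16, Gm29237 (1.76), Sgk1, Leng9 (1.41) and Ttr (1.39), among others, and lower in Adam11, Cped1 (-1.40), Cntn4 (-1.32), Slc7a11 (-1.16) and Actg1 (-1.07). Ttr is the transthyretin of choroid plexus, the only marker of that epithelium tested.

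The log2 changes of the 2 types were compared by testing their difference, over 8 sums with the library as a block. Calls were counted over 15007 genes outside the rule, while the fit and the adjustment again included genes of the rule. Between PS19 and WT, 7 genes differed (0.0466%) and between TG_PS19 and PS19 6 (0.0400%). DESeq2 called 0 in each, and edgeR after thinning to 1000 UMIs 0 and 2. How clearly the rule split the nuclei also differed: a margin of 4 or more was held by 711 of 1824, 434 of 781, 482 of 793 and 699 of 1695 Hapln2/Anln nuclei. The split and depth cannot be told apart from genotype here, and their part in these differences was not tested. Kirrel3 (chr9:34485894-35036716, plus strand) was the first in PS19: in the Il33/Opalin type it stood at 1386.9 plain CPM in WT and 2736.6 and 2863.9 in PS19, and in Hapln2/Anln nuclei at 511.5, 557.8 and 645.7. The Il33/Opalin change was 1.08 and that of the Hapln2/Anln type 0.31, a difference of -0.77 ± 0.08 (adjusted p = 4.9e-06). In TG_PS19 Kirrel3 was at 1537.9 and 467.2, and the difference from PS19 was 0.51 ± 0.08 (adjusted p = 0.0049). Apod (chr16:31296192-31314808, minus strand) rose in the Hapln2/Anln type alone by the tests of each type: it stood at 801.5 plain CPM in WT and 1193.8 and 1000.5 in PS19, against 651.3, 724.7 and 578.2 in the Il33/Opalin type. The difference of the 2 changes was 0.46 ± 0.09 (adjusted p = 0.029). Ptgds (chr2:25466709-25470046, minus strand) changed by 0.02 in the Hapln2/Anln type and 0.39 in the other, a difference of -0.37 ± 0.06 (adjusted p = 0.012).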

How the data were processed

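Single-nucleus RNA was measured in hippocampus with the 10x Genomics 3′ v3.1 chemistry, per the labels' protocols. The authors deposited filtered matrices of UMI counts per gene and barcode; Cell Ranger 7.1.0 and the build GRCm38 are named per the submitters' processing notes. The matrices hold 55403 features, 55401 of mouse and 2 of human, and 54349 matched GENCODE M21. Members and lists were chosen with earlier results of these data known.

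UMIs of the members were summed per library and tested with edgeR 4.0.16 (limma 3.58.1, R 4.3.3, with TMM, filterByExpr, quasi-likelihood, 1 residual degree of freedom). The 22 genes of the rule took part in the scaling, the fit and the adjustment. They were left out when calls were counted, over 14880 genes. The replicates PS19 1 and PS19 2 differed by more than counting noise (chi-square per degree of freedom 2.23 over 12002 genes). On simulated counts of PS19 against WT over 14902 genes, 74.0% of 100 genes changed 2-fold and 100% of 100 changed 4-fold were recovered, with 0 false calls. Changes were placed only in genes with a mean of 20 CPM or more. All genes were drawn with the same dispersion (0.0062), and libraries differed only in their totals. The simulation therefore cannot measure false calls from other differences between the single libraries. Named genes were all list members, and per comparison the 10 largest changes in each direction among called genes with a mean of 20 CPM or more, both PS19 libraries on the same side, and no gene of the rule, mitochondria or sex chromosomes; the type contrast gave 15 and 15 and each interaction 5. From each of the 22 gene lists up to 4 called members per direction, by smallest p, were eligible. Doublets were predicted from 2 simulated doublets per nucleus and 30 components, at 0.8% per 1000 nuclei, and marked 216, 21, 27 and 133 members; they were kept in the main results. Alternatives were DESeq2 1.42.0, other scalings, filters, depth limits, thinning to 1000 UMIs, changes of the rule, and TG_PS19 nuclei by sex call. After thinning, the whole rule was applied again, so the nuclei were partly others. Promoter windows came from RefSeq. Python 3.11.15, numpy 2.4.6, scipy 1.17.1, pandas 2.3.3, scikit-learn 1.9.0 and matplotlib 3.10.9 were used. Results for some genes are not reported here.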

Additional observations from a re-analysis of the deposited data

Results flagged for a closer look

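Genes whose change between genotypes differed between the Hapln2/Anln and Il33/Opalin types by edgeR's test of the difference are given with that difference (log2, Hapln2/Anln minus Il33/Opalin). Between PS19 and WT these were Kirrel3 (-0.773), Ctnna2 (0.526), Ptgds (-0.374), Adgrb3 (0.826), Gabrg3 (2.69), Apod (0.462) and Ust (-1.10). Ctnna2, an adhesion-linked catenin, changed by 0.17 in the Hapln2/Anln type and -0.36 in the other, and Adgrb3, an adhesion receptor, by 0.09 and -0.73. Ust, a sulfotransferase of matrix sugars, stood at 40.9, 31.5, 35.5 and 41.3 plain CPM in Hapln2/Anln nuclei and 91.4, 159.8, 163.8 and 106.9 in the Il33/Opalin type.

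Between TG_PS19 and PS19 the genes were 9630013A20Rik (-2.61), Gm13187 (-3.14), Kirrel3 (0.505), Cntn1 (-1.48), Gabrg3 (-2.69) and Frmd4a (-0.791). Several of these rested on few nuclei. One Hapln2/Anln nucleus of PS19 replicate 2 held 57 of the 74 Gabrg3 UMIs of that library (77.0%), one of each PS19 library held 88.2% and 58.0% of the Gm13187 UMIs, 30.6% and 43.0% of those of Cntn1, and 41.9% and 28.1% of those of Frmd4a. In contrast, no nucleus held more than 8.4% of a library's Kirrel3 UMIs, 2.9% of its Apod UMIs or 2.3% of its Ptgds UMIs.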

How the results depend on the processing

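No paired analysis was possible because the PS19 libraries were the only replicates and no other group shared their numbers. Leaving out a PS19 library left no residual degree of freedom, so only fold changes were recomputed. The main counts of called genes were 877 (PS19 against WT), 1015 (TG_PS19 against PS19) and 255 (TG_PS19 against WT). In that order they became 53, 57 and 9 with DESeq2, 177, 115 and 5 with library totals, which moved the median of all genes by -0.07, -0.03 and -0.10 log2 units, and 246, 332 and 89 after thinning. For the first 2 they were 411 and 643 at 20 CPM or more and, in alternatives added after the data were seen, 495 and 549 without nuclei holding other-type UMIs. Genes at or above their level outside oligodendrocytes, also added later, gave 225, 375 and 137. Leaving out doublets gave 483 for PS19 against WT, and Y-linked TG_PS19 nuclei alone 573 for TG_PS19 against PS19.

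Differences between types, 7 for PS19 against WT and 6 for TG_PS19 against PS19, became 0 and 0 with DESeq2, 0 and 1 with adjusted residual degrees of freedom, 1 and 1 with relative log expression scaling, 0 and 2 after thinning, 4 and 3 at 20 CPM or more, 1 and 2 with Xist nuclei, 30 and 33 without the C4b limit, 35 and 15 without doublets, 30 and 17 at a margin of 2, 32 and 19 without other-type UMIs and 28 and 19 with no filter. For PS19 against WT alone they were 3 with library totals and 2 with Y-linked nuclei. Shares of members became 37.2%, 46.0%, 44.2% and 37.9% at a margin of 2, and 44.6%, 48.3%, 45.5% and 44.4% after thinning; in TG_PS19 the share was 51.9% without other-type UMIs and 52.3% among Y-linked nuclei.

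Directions turned for 9630013A20Rik after thinning (-0.0096 in PS19 against WT and 0.12 in TG_PS19 against PS19), for Fkbp5 among Xist nuclei (0.051), and among Y-linked nuclei for Htra1 (-0.26), Vcan (-0.57) and Sgk1 against WT (-0.10). They also turned for the type differences of Gabrg3 (-0.67 and 0.46) and Cntn1 (0.0054) after thinning and of Gm13187 at a margin of 2 (0.89). The causes were not tested. Zbtb16, Sgk1, Fkbp5, Plin4, Pdk4 and Arrdc2 kept their rise in PS19 in all alternatives run. The smallest library held 2162002 member UMIs, which limits what can be called among genes of low level.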
